A study of Mus musculus with 14 samples.

Results

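Histone acetylation is laid down by acetyltransferases, removed by deacetylases and read by proteins with a bromodomain or a YEATS domain. The transcripts of 53 such genes, chosen by symbol from a fixed list, were followed among the 55367 gene symbols counted in mouse bone marrow cells, and all 53 were found in both count tables. They are 5 acetyltransferases of the MYST family, 4 other acetyltransferases, 22 complex subunits, 11 zinc-dependent deacetylases, 4 sirtuins and 7 acetylation readers. The complex subunits belong to acetyltransferase complexes, except Ing1 and Ing2, which serve the SIN3 deacetylase complex. The messenger RNA came from lineage-negative primary cells, the marrow fraction depleted of mature blood lineages, of wild-type genotype, grown with the cytokines SCF, IL6 and IL3. The first experiment has 6 samples, of which 3 samples carried a lentiviral luciferase control and the other 3 carried lentiviral SETBP1-D868N, a mutant of the nuclear protein SETBP1 that is found in myeloid leukemia. In the second, all samples carried SETBP1-D868N, and 4 were kept with the solvent DMSO and 4 with 2.5 µM PF-9363, a small-molecule inhibitor of MYST acetyltransferases, for 4 days. The first experiment thus asks how the acetylation machinery differs in cells that carry the mutant, and the second how its transcripts respond when MYST enzymes are inhibited. The cells were transduced pools, and the promoter that drives the lentiviral inserts, the age and the number of donor mice are not given in the sources used here.

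Acetyltransferases rarely act alone. Within MYST complexes, a scaffold of the BRPF or JADE family joins the enzyme to an ING subunit that binds methylated histone H3, and the choice of scaffold steers the enzyme to one histone or another. Kat6a and Kat6b work with BRPF scaffolds, Kat7 with BRPF or JADE scaffolds, Kat5 in the TIP60 complex and Kat8 in the MSL and NSL complexes. Kat6a and Kat7 are known for roles in blood stem and progenitor cells.

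Libraries of luciferase and SETBP1-D868N held 60147266 to 68730322 counts each. Those of DMSO and PF-9363 held 7083731 to 10359093, and low transcripts were measured less precisely there. Nothing in the labels says that replicates came from separate cultures or animals, and p-values then measure only the spread between these samples. Correlations of log2 values across genes lay at 0.995 to 0.996 within a group and 0.987 to 0.989 across the luciferase and SETBP1-D868N groups. They were 0.984 to 0.990 within and 0.836 to 0.871 across the DMSO and PF-9363 groups. A scatter index (chi-square over its degrees of freedom) grows as replicates differ beyond sampling noise. Luciferase 1 scored 27.0 with luciferase 2 and 27.7 with luciferase 3, while luciferase 2 with 3 scored 2.28. Pairs of SETBP1-D868N libraries scored 8.09 to 12.9. Luciferase 1 thus stood apart from the other controls, which the correlations do not show. Mouse Setbp1 was at 0.0744 to 0.101 CPM in the luciferase libraries, 0.306 to 0.361 CPM with SETBP1-D868N, 0 to 0.198 CPM with DMSO and 0 CPM with PF-9363. The labels do not give the species of the introduced coding sequence, so these counts do not check the transduction. The 10 lymphoid markers summed to at most 10.2 CPM in a library of the second experiment, with Cd3e, Cd3g, Ms4a1, Klrb1c and Cd8a at 0 counts in all 8, which allows up to 0.272 to 0.466 CPM in a library (3 counts, counting error only). Markers of mature myeloid cells were present in every group.

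With SETBP1-D868N, 23 of the 53 genes passed the test, 19 higher and 4 lower, and 0 of the 53 changed by 2-fold, where 1.34% of all genes tested were called at least 2-fold higher and 2.48% at least 2-fold lower. Levels are CPM (counts scaled to library size with TMM factors), and adjusted p-values are edgeR's quasi-likelihood test with Benjamini-Hochberg adjustment over all 15794 genes tested, called under 0.05. The called members made up 43.4%, against 47.2% of all genes tested, so the share called was near the background. Among all genes 24.5% were called higher and 22.7% lower, while among the members 35.8% were higher and 7.55% lower. The largest changes were those of the deacetylase Hdac10 at 1.45-fold and of the acetyltransferase Kat2a at 1.30-fold, and the deacetylase Hdac4 was 1.30-fold lower. The median log2 fold change was 0.043 over the members and 0.0043 over all genes tested, and the median size of a called change was 0.18. The groups did not overlap for 33 of the 53 members (62.3%), against 56.7% of all genes tested. Scaling by library size alone gave 26 members higher and 2 lower, and moved the share of higher calls among all called genes from 51.9% to 62.1%.

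With PF-9363, 39 of the 52 genes tested passed, 24 higher and 15 lower. The coactivator acetyltransferase Crebbp and complex subunits led the increases, with Crebbp 3.91-fold, Jade2 2.90-fold, Epc1 2.75-fold and Brpf3 2.56-fold higher. Yeats2, Hdac6, Hdac2, Hdac7 and Brd9 led the decreases, at 3.33-fold, 2.98-fold, 2.20-fold, 2.11-fold and 2.02-fold lower. In all, 9 members rose and 5 fell by at least 2-fold, where 15.8% of all genes tested rose and 18.1% fell that far. The background was high: 76% of 13456 genes tested were called (36.6% higher and 39.4% lower), against 75.0% of the members (46.2% higher and 28.8% lower). The groups did not overlap for 40 of the 52 (76.9%), against 70.3% of all genes. The median log2 fold change was 0.13 over the members and -0.038 over all genes, and the median size of a called change was 0.79. Without the expression filter the medians over members and all genes were 0.063 and 0.040. Scaling by library size alone lowered the median over all genes to -0.27 and the members' to -0.096, and gave 21 members higher and 23 lower, with the share of higher calls among all called genes going from 48.1% to 36.2%. Changes below are therefore relative to the TMM scale. Hdac11 was the 1 member under the expression filter.

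**Figure D1:**
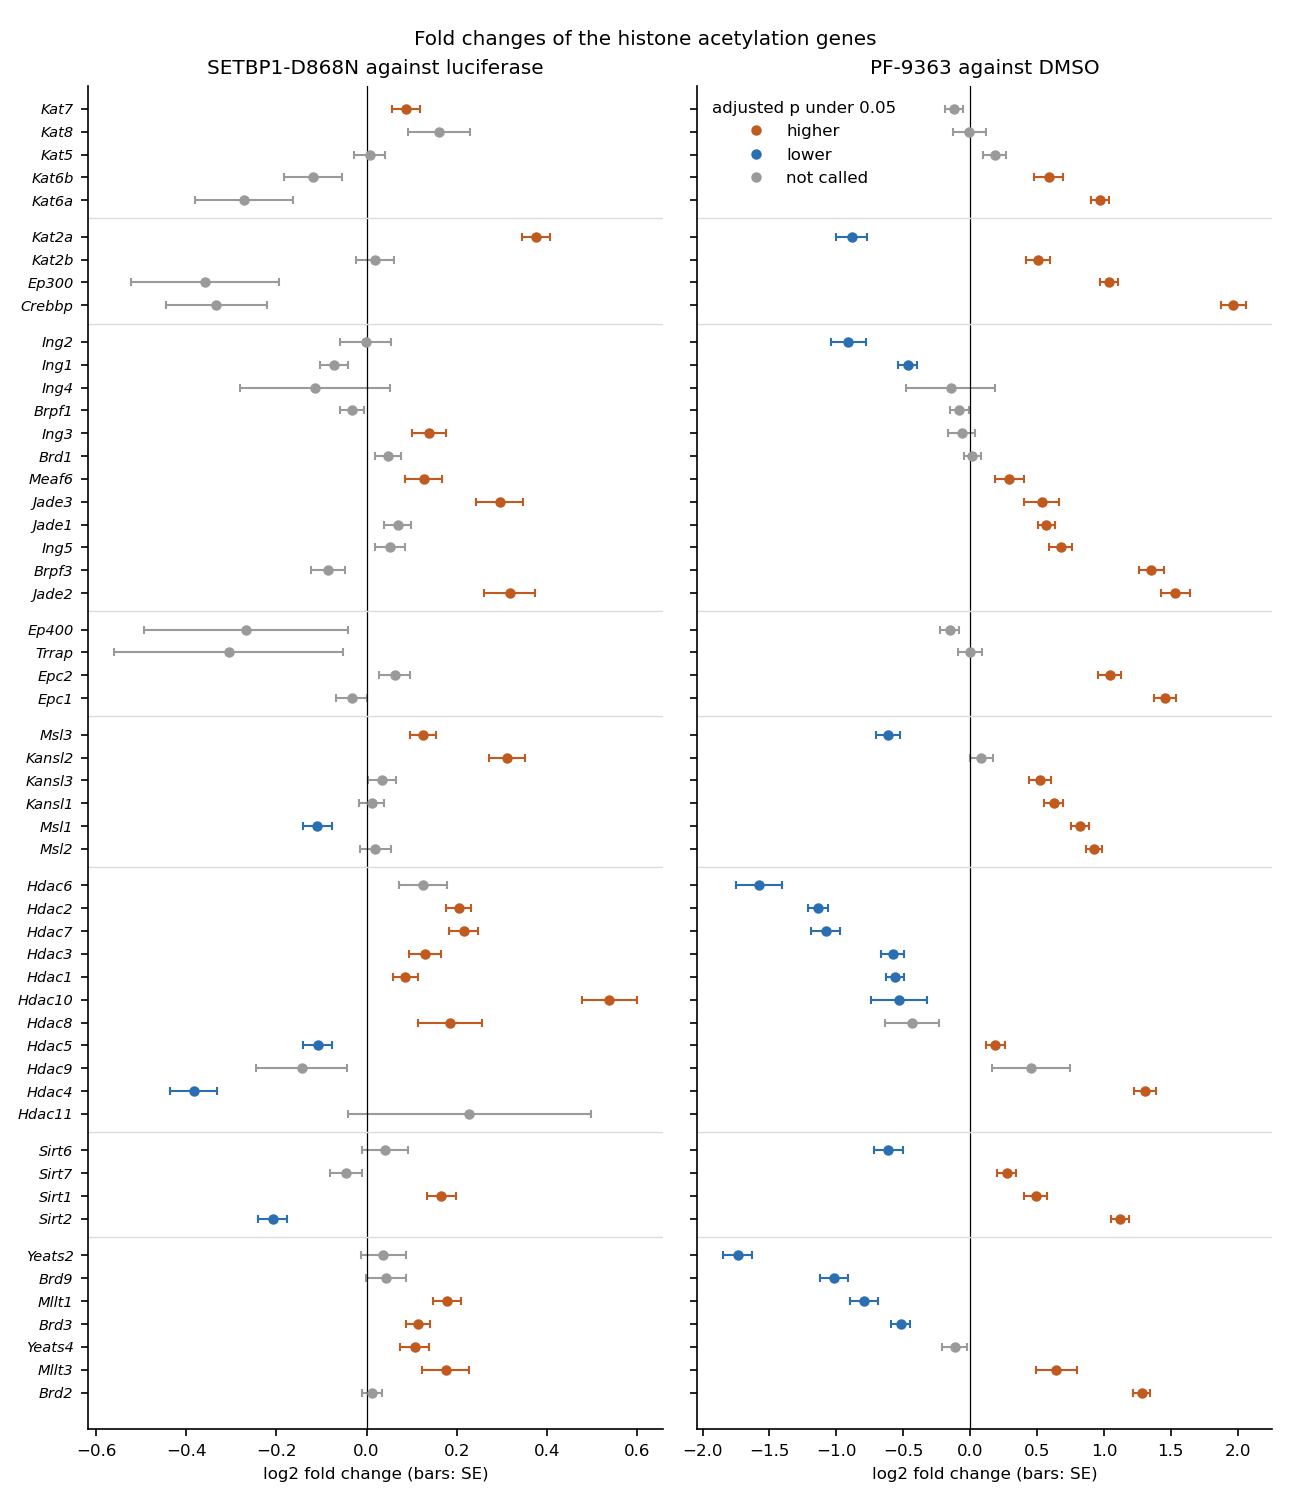
Log2 fold change of each gene in SETBP1-D868N against luciferase (left) and PF-9363 against DMSO (right), with the standard error as bars, grouped by role and coloured by the call. The horizontal scales differ: changes with SETBP1-D868N lie between -0.38 and 0.54, and changes with PF-9363 between -1.74 and 1.97.

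Other gene groups moved with both treatments, and these libraries are mixtures, in which fewer cells of a type and less RNA per cell cannot be told apart. With SETBP1-D868N, all 10 macrophage markers were lower, their summed level going from 922 to 957 CPM per luciferase library to 566 to 597 CPM. Of 12 cell division genes, 9 were higher and the others not called, with sums of 2926 to 3130 CPM and 3039 to 3244 CPM. Of 10 neutrophil granule genes, 4 were higher and 6 lower, as were 4 and 6 of the 10 mast cell and basophil genes. Of 8 stem and progenitor markers, 6 were higher and 2 lower, with sums of 974 to 1003 CPM and 1177 to 1225 CPM. With PF-9363, all 10 macrophage markers were higher, with sums of 433 to 533 CPM and 3241 to 3929 CPM. The mast cell and basophil list had 9 of 10 genes higher and 1 not called, with sums of 1036 to 1312 CPM and 4442 to 5444 CPM. Neutrophil granule genes were 2 higher and 5 lower, and stem and progenitor markers 4 higher and 2 lower. All 12 cell division genes were lower, with sums of 2628 to 2852 CPM and 343 to 696 CPM. These shifts accompany every change described below, and their part in the changes of the acetylation genes was not tested.

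The sequence before the start was read for the members from RefSeq windows on build GRCm38.p6, which run from 250 bases before to 50 bases after a start. Windows were found for 47 of the 53 members, 73 in all. Members' windows had a median of 26 CpG dinucleotides and 65.0% GC, against 7 and 52.7% over all 32851 windows. The motif GGGCGG, bound by SP and KLF factors, stood in 75.3% of the members' windows and 35.7% of all windows, both strands counted. For CCGGAAG, an ETS motif, the shares were 17.8% and 8.86%, and for the NRF1 motif they were 5.48% and 0.971%. CCAAT, the NFY box, stood in 37.0% of members' windows and 37.4% of all, and CACGTG, the MYC E-box, stood in 5.48% and 7.15%. GGGCGG stood in 78.8% of the 33 windows (21 genes) of members that rose with PF-9363. It stood in 72.7% of the 22 windows (12 genes) of members that fell and in 70.6% of the 17 windows (13 genes) of members not called. Some members have several windows, which can overlap, so windows are not independent. Windows are shown from 250 to 51 bases before the start for the genes of largest change in each direction with a single window and no annotated exon in it: Brpf3 and Hdac4, which rose, and Yeats2 and Hdac6, which fell. Capitals mark matches to any of the 5 motifs on either strand, and no matches overlap within these windows.
Brpf3 (chr17:28800876-28801075, plus strand): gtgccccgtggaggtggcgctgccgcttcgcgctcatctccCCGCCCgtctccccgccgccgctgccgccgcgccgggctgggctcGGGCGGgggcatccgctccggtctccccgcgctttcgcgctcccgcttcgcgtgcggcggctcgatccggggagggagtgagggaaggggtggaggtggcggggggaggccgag
Hdac4 (chr1:92180392-92180591, minus strand): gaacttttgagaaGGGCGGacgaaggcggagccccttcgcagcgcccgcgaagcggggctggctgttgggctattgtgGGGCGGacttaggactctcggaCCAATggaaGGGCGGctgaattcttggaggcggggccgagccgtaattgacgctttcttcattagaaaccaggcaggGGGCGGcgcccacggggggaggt
Yeats2 (chr16:20140813-20141012, plus strand): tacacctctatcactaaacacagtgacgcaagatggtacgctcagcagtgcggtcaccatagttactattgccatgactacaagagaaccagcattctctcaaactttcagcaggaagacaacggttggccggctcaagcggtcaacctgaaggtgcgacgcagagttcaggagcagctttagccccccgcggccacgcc
Hdac6 (chrX:7947940-7948139, minus strand): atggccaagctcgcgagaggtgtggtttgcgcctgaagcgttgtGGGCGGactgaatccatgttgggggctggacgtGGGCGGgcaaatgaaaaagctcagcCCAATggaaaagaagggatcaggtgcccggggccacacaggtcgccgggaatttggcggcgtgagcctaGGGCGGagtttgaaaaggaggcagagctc
The Brpf3 stretch is 79% GC with 2 matches to GGGCGG, and the Yeats2 stretch is 54% GC with 0 matches to any motif. Those of Hdac4 and Hdac6, which moved in opposite directions, both hold GGGCGG (4 and 3 matches) and 1 CCAAT box. The Hdac4 window lies inside the gene as GENCODE annotates it (its longest transcript starts farther upstream), and the other 3 lie before the annotated gene. A match is a description of letters and not evidence of binding.

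Among the MYST enzymes, the transcripts of Kat6a and Kat6b rose with PF-9363, and those of Kat5, Kat7 and Kat8 did not pass the test. Which of these enzymes the inhibitor reached in the cells was not tested. Kat6a (chr8:22859535-22943259, plus strand), an enzyme of histone H3 known for its fusions in acute myeloid leukemia, was at 96.4, 108, 88.2 and 97.4 CPM in the DMSO libraries and 175, 194, 207 and 189.5 CPM in the PF-9363 libraries. Every treated library lay above every control, and the log2 fold change was 0.97 ± 0.069 (SE) with an adjusted p of 2.81e-13. Its close relative Kat6b (chr14:21481434-21672478, plus strand) was at 18.4, 21.5, 16.9 and 18.8 CPM in the DMSO libraries and 25.2, 27.9, 29.4 and 31.4 CPM in the PF-9363 libraries. This rise was smaller, 0.59 ± 0.11 (SE) on the log2 scale (adjusted p = 2.09e-05), again with no overlap. Kat7 (chr11:95274259-95310246, minus strand), which acetylates histone H3 or H4 depending on its scaffold, was at 109, 113, 103 and 107 CPM in the DMSO libraries and 106, 92.6, 100.2 and 99.5 CPM in the PF-9363 libraries. The groups overlapped and Kat7 was not called (log2 fold change -0.12 ± 0.066 SE, adjusted p = 0.101). Scaling by library size alone called it lower, at -0.35 (adjusted p = 3.01e-05).

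Kat5 (chr19:5603014-5610237, minus strand), the catalytic subunit of TIP60, was at 38.5, 41.7, 42.8 and 48.3 CPM in the DMSO libraries and 49.7, 52.4, 46.8 and 45.8 CPM in the PF-9363 libraries. The log2 fold change of 0.18 ± 0.087 (SE) missed the threshold (adjusted p = 0.0569), and it passed with RLE scaling (0.21, adjusted p = 0.0301), under DESeq2, and when DMSO 4 or either of the PF-9363 libraries 3 and 4 was left out (0.21 to 0.24, adjusted p 0.0193 to 0.0444), while library-size scaling turned it to -0.046. Rnaseh2c, on the opposite strand, shares 426 exon bases with Kat5 and went from 70.5 to 29.5 CPM, and the counting of strands is not given in the sources used here. Kat8 (chr7:127912516-127925837, plus strand), the enzyme of histone H4 in the MSL and NSL complexes, was at 16.4, 13.7, 16.4 and 16.3 CPM in the DMSO libraries and 15.4, 15.2, 14.1 and 17.6 CPM in the PF-9363 libraries. The values overlapped throughout, with a log2 fold change of -0.0051 ± 0.12 (SE) and an adjusted p of 0.972.

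With SETBP1-D868N, 1 of the 5 MYST enzymes was called, where 47.2% of all genes tested were called. Kat7 was called higher by 1.06-fold, with 133, 130.0 and 132 CPM in the luciferase libraries and 134, 144 and 141 CPM in the SETBP1-D868N libraries. This difference of 0.088 ± 0.030 (SE) on the log2 scale (adjusted p = 0.032) lost its call in 8 of 14 alternatives, among them leaving out any one of luciferase 1, 2 and 3 and SETBP1-D868N 2 and 3 (0.062 to 0.094, adjusted p 0.0522 to 0.154). The values of Kat6a were 132, 111 and 111 CPM in the luciferase libraries and 88.7, 97.6 and 107 CPM in the SETBP1-D868N libraries. Here luciferase 1 was the highest and SETBP1-D868N 1 the lowest library, and the change of -0.27 ± 0.11 (SE) was not called (adjusted p = 0.104). DESeq2, limma-voom and edgeR without robust estimation called it lower, with adjusted p-values of 0.000896, 0.0218 and 0.0223, and without luciferase 1 the change was -0.18. Kat6b was at 16.6, 15.7 and 14.03 CPM in the luciferase libraries and 13.9, 13.8 and 14.99 CPM in the SETBP1-D868N libraries, and its log2 fold change of -0.12 ± 0.065 (SE) was not called (adjusted p = 0.158), except without luciferase 3 (-0.18, adjusted p = 0.0379), and it was -0.064 without luciferase 1. Kat8 was at 16.3, 16.6 and 19.5 CPM in the luciferase libraries and 18.6, 20.3 and 19.6 CPM in the SETBP1-D868N libraries. Luciferase 3 lay among the SETBP1-D868N values, and the difference of 0.16 ± 0.069 (SE) was not called (adjusted p = 0.0776), while without that library it was 0.25 (adjusted p = 0.00569). Kat8 was also called higher with library-size scaling (0.21, adjusted p = 0.0273) and without the expression filter (0.16, adjusted p = 0.0119). Kat5 stood at 47.6, 49.04 and 48.003 CPM in the luciferase libraries and 48.9, 49.4 and 46.9 CPM in the SETBP1-D868N libraries, the flattest of the 5 (log2 fold change 0.0066 ± 0.034 SE, adjusted p = 0.891).

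Per kilobase of annotated exon, Kat7 was the most abundant MYST transcript in 3 of the 4 groups. In the luciferase libraries it stood at 23.8 ± 0.246 CPM per kilobase (SD, n = 3), followed by Kat5 at 13.7 ± 0.213 and Kat6a at 12.9 ± 1.35, which did not differ beyond their spread, then by Kat8 at 6.05 ± 0.620 and Kat6b at 0.917 ± 0.0762. With DMSO the order was Kat7 (19.5 ± 0.783, SD, n = 4), Kat5 (12.2 ± 1.17), Kat6a (10.6 ± 0.895), Kat8 (5.43 ± 0.453) and Kat6b (1.12 ± 0.114), and Kat5 and Kat6a again lay within their spread. With PF-9363, Kat6a came first at 20.9 ± 1.41 CPM per kilobase, ahead of Kat7 at 17.97 ± 0.967 and Kat5 at 13.9 ± 0.851. Over all members the highest level per kilobase was that of Brd2 in the luciferase libraries (44.5 ± 0.495) and with PF-9363 (70.4 ± 5.43), and that of Hdac1 with DMSO (52.6 ± 2.86).

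**Figure D2:**
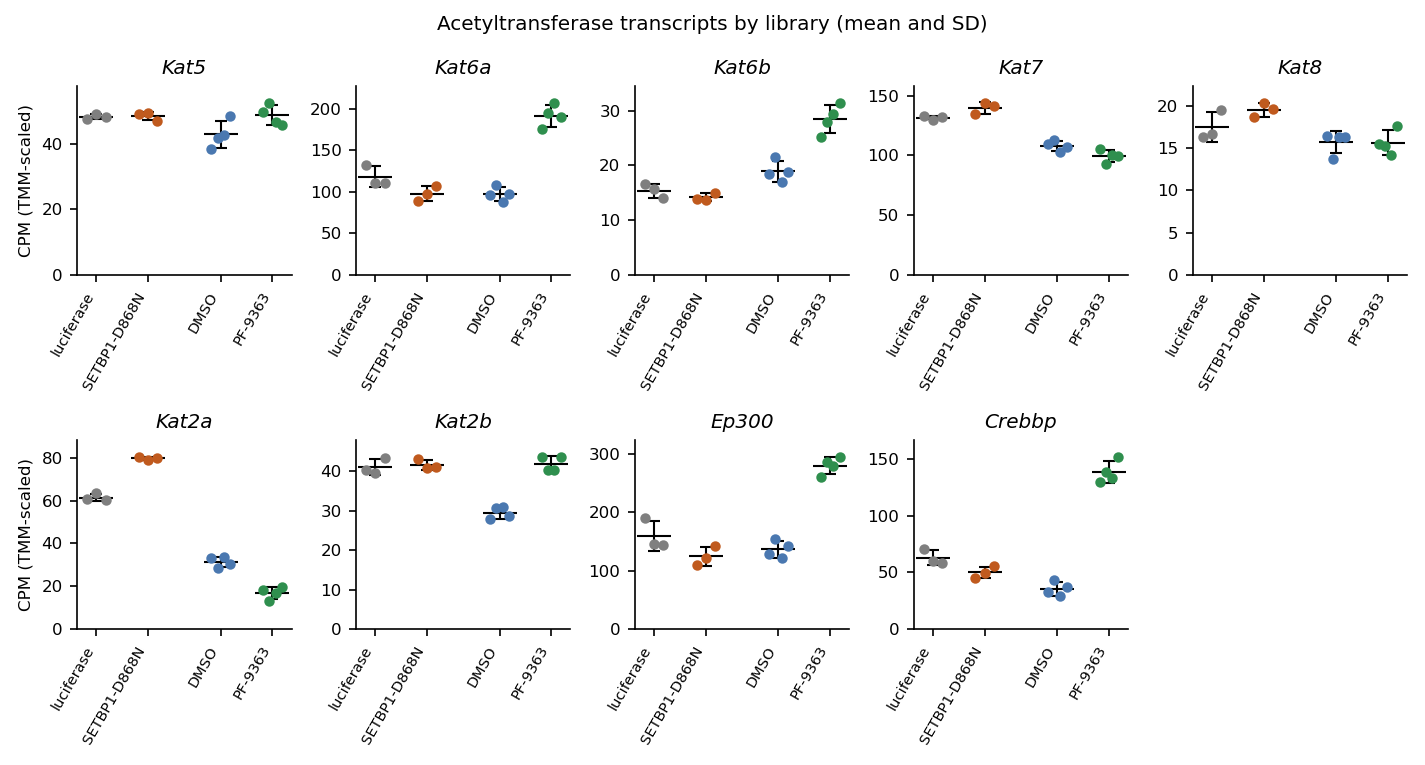
Transcript level of the 9 acetyltransferases in each library, in CPM on an axis from 0, with the mean and SD of each group. Kat6a, Kat6b, Kat2b, Ep300 and Crebbp were higher in every PF-9363 library than in every DMSO library, and Kat2a was lower. Luciferase and SETBP1-D868N belong to one experiment and DMSO and PF-9363 to the other.

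The coactivators Crebbp and Ep300, which acetylate enhancers, showed the largest increases among the 9 acetyltransferases. Crebbp (chr16:4081328-4213997, minus strand) was at 32.4, 43.1, 29.3 and 37.03 CPM in the DMSO libraries and 130.0, 139, 134 and 152 CPM in the PF-9363 libraries. Its level thus rose 3.91-fold, the largest increase of all members (1.97 ± 0.093 SE on the log2 scale, adjusted p = 8.29e-15). The paralog Ep300 (chr15:81585351-81652077, plus strand) was at 128, 154, 122 and 142 CPM in the DMSO libraries and 261, 287, 279 and 295 CPM in the PF-9363 libraries. Every treated library lay above every control, by 1.04 ± 0.069 (SE) on the log2 scale (adjusted p = 7.60e-14). The paralogs Kat2a and Kat2b, which serve as alternative enzymes of the SAGA and ATAC complexes, moved apart. Kat2a (chr11:100704746-100712465, minus strand) was at 32.95, 28.4, 33.8 and 30.2 CPM in the DMSO libraries and 18.1, 12.9, 16.9 and 19.6 CPM in the PF-9363 libraries. Its decrease of 0.89 ± 0.12 (SE) on the log2 scale had an adjusted p of 9.38e-08. Kat2b rose from 29.6 ± 1.53 CPM to 41.99 ± 1.85 CPM (SD, n = 4), by 0.51 ± 0.088 (SE, adjusted p = 7.80e-06), with no overlap between the groups. Long transcripts as a class stood higher in the treated libraries. They were 975 genes with at least 10000 bases of exon and a mean of at least 10 CPM. Their median log2 difference from the DMSO mean was 0.15 to 0.17 in the 4 PF-9363 libraries and -0.065 to 0.10 in the DMSO libraries. Over the 9 members among them it was 0.53 to 0.86 with PF-9363 and -0.14 to 0.19 with DMSO. The part of transcript length in the rise of Crebbp and Ep300 was not tested.

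In cells with SETBP1-D868N, Kat2a was the only acetyltransferase besides Kat7 that was called. Its values were 60.8, 63.4 and 60.2 CPM in the luciferase libraries and 80.3, 78.8 and 80.2 CPM in the SETBP1-D868N libraries. The libraries within each group were close together, and the difference of 0.38 ± 0.031 (SE) had an adjusted p of 1.31e-06. Kat2b was not called (log2 fold change 0.018). Ep300 and Crebbp, singled out here after their values were seen, were lower on average but not called, at -0.36 ± 0.16 (SE) and -0.33 ± 0.11 (SE, adjusted p = 0.152 and 0.065). Ep300 was at 189.8, 146 and 144 CPM in the luciferase libraries and 110.3, 122 and 142 CPM in the SETBP1-D868N libraries, and luciferase 1 stood above the rest. Without that library the change of Ep300 was -0.22. Crebbp was called lower by DESeq2, limma-voom and edgeR without robust estimation (adjusted p = 0.000116, 0.0111 and 0.0112) and without SETBP1-D868N 3 (-0.41, adjusted p = 0.0462), and Ep300 by limma-voom and edgeR without robust estimation (0.0293 and 0.0290). Transcript length moved with this spread. Of the members with at least 10000 bases of exon, 9 had a mean of at least 10 CPM, among them Ep300 and Crebbp. Their median log2 difference from the luciferase mean was 0.10, -0.057 and -0.11 in luciferase 1, 2 and 3. In SETBP1-D868N 1, 2 and 3 it was -0.46, -0.28 and -0.0044. Over all 971 genes of that length and level it was 0.048, -0.029 and -0.026 and then -0.14, -0.074 and -0.018. These were smaller in size except in SETBP1-D868N 3, and the part of transcript length in the result was not tested.

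The scaffolds that bring MYST enzymes to chromatin split into members that rose with PF-9363 and members that did not. Of the 12 BRPF, JADE, ING and MEAF6 genes, 6 rose and 2 fell (5 and 5 when scaled by library size). Among all genes tested, 36.6% rose and 39.4% fell. The 2 members that fell on the TMM scale were Ing1 and Ing2, of the SIN3 deacetylase complex. Jade2 (chr11:51813455-51857653, minus strand), one of the scaffolds that direct Kat7 to histone H4, was at 14.5, 14.04, 13.8 and 17.9 CPM in the DMSO libraries and 40.7, 42.96, 48.5 and 43.5 CPM in the PF-9363 libraries. It rose 2.90-fold (1.53 ± 0.11 SE, adjusted p = 1.41e-13). Brpf3, a scaffold of Kat7 and the gene whose GC-rich window is printed above (chr17:28801090-28839949, plus strand), was at 17.8, 16.7, 18.97 and 17.7 CPM in the DMSO libraries and 46.97, 45.3, 43.03 and 46.8 CPM in the PF-9363 libraries. No treated library came near the controls, a log2 fold change of 1.35 ± 0.094 (SE, adjusted p = 1.62e-13). Its relatives Brpf1 and Brd1, scaffolds of Kat6a, Kat6b and Kat7, were not called, at -0.080 and 0.018. Jade1, Jade3, Ing5 and Meaf6 rose by 0.57, 0.54, 0.68 and 0.29 on the log2 scale (adjusted p = 1.06e-08, 0.000569, 6.36e-08 and 0.0138), the last not under library-size scaling (0.063, adjusted p = 0.596).

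Ing1 and Ing2, which serve the SIN3 deacetylase complex and not a MYST enzyme, both fell. Ing2 (chr8:47667178-47675556, minus strand) was at 23.2, 19.5, 19.1 and 22.4 CPM in the DMSO libraries and 10.9, 10.9, 13.7 and 9.63 CPM in the PF-9363 libraries. It fell by 0.91 ± 0.13 (SE, adjusted p = 3.43e-07), and Ing1 by 0.47 ± 0.073 (SE, adjusted p = 1.61e-06). Ing3, of TIP60, was not called (log2 fold change -0.064). Ing4 was also not called (-0.14), but at 1.69 ± 0.288 CPM with DMSO its change could not be measured well, and Gm44597 on the same strand covers 34.9% of its exon bases.

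With SETBP1-D868N, 4 of these 12 genes were higher and 0 lower by edgeR, where 24.5% of all genes tested were higher and 22.7% lower. At an unadjusted p under 0.05 the 12 genes gave 5 and 2. DESeq2 called 3 higher and 0 lower and limma-voom 4 and 0, and edgeR called 4 and 1 with RLE scaling and 7 and 0 with library-size scaling. Jade2 was at 15.5, 15.5 and 16.2 CPM in the luciferase libraries and 20.3, 18.004 and 20.5 CPM in the SETBP1-D868N libraries, and its groups did not overlap (0.32 ± 0.057 SE, adjusted p = 0.000606). Jade3 was at 13.9, 13.2 and 14.05 CPM in the luciferase libraries and 16.1, 17.5 and 16.9 CPM in the SETBP1-D868N libraries, a change of 0.30 ± 0.052 (SE, adjusted p = 0.000538). Ing3 and Meaf6 were higher by 0.14 and 0.13 on the log2 scale (adjusted p = 0.00885 and 0.0244). Leaving out any single library but SETBP1-D868N 2 ended the call of Meaf6 (0.100 to 0.13, adjusted p 0.0531 to 0.0913), as did DESeq2. The other 8, Brpf1, Brpf3, Brd1, Jade1, Ing1, Ing2, Ing4 and Ing5, were not called. Jade2, Jade3 and Meaf6 were thus higher in both comparisons.

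In the TIP60 complex, the 2 Epc subunits rose with PF-9363 and the 2 large subunits were not called. Epc1 (chr18:6435951-6516108, minus strand), which bridges the enzyme Kat5 to the rest of the complex, was at 27.8, 25.9, 24.2 and 25.4 CPM in the DMSO libraries and 72.5, 68.2, 73.2 and 70.03 CPM in the PF-9363 libraries. The increase was 1.46 ± 0.082 (SE, adjusted p = 1.36e-15). Epc2, its paralog (chr2:49451486-49551948, plus strand), was at 31.9, 33.1, 28.3 and 32.7 CPM in the DMSO libraries and 70.4, 61.6, 61.2 and 65.7 CPM in the PF-9363 libraries. It rose by 1.04 ± 0.084 (SE, adjusted p = 4.73e-12), also with no overlap. Gm28529, on the strand opposite Epc1, shares 322 exon bases with Epc1 and went from 3.86 CPM with DMSO to 9.82 CPM with PF-9363. Ep400, the ATPase, and Trrap, the scaffold shared with SAGA, had log2 fold changes of -0.15 and 0.00084 (adjusted p = 0.0549 and 0.993); library-size scaling called both lower. With SETBP1-D868N, 0 of these 4 genes were called by edgeR, DESeq2 or limma-voom, and 0 had an unadjusted p under 0.05 in edgeR. Library-size scaling called 1 higher. With TMM scaling, edgeR called 47.2% of all genes tested. Trrap was at 157, 104 and 105 CPM in the luciferase libraries and 82.8, 92.2 and 121 CPM in the SETBP1-D868N libraries, and in both Trrap and Ep400 luciferase 1 was highest and SETBP1-D868N 1 lowest (changes of -0.31 ± 0.25 SE and -0.27 ± 0.23 SE). Without luciferase 1 the changes were -0.078 and -0.062.

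Kat8 works in either of 2 complexes, MSL and NSL, and several of their subunits rose while Kat8 itself was not called. Msl2 (chr9:101074101-101104800, plus strand), an ubiquitin ligase, rose from 102 ± 0.866 CPM to 193 ± 10.99 CPM (SD, n = 4), by 0.93 ± 0.062 (SE, adjusted p = 6.94e-14), and Msl1, the scaffold of MSL (chr11:98795516-98807859, plus strand), from 159 ± 8.79 CPM to 281 ± 22.8 CPM, by 0.82 ± 0.066 (SE, adjusted p = 4.04e-12). The antisense gene Gm12359, which shares 266 exon bases with Msl1, went from 42.4 to 71.3 CPM in the same libraries, and stood at 0.572 CPM with luciferase in the first experiment. Strands may have been counted differently in the 2 tables, and the part of this overlap in the level of Msl1 was not tested. Kansl1 and Kansl3 of the NSL complex rose by 0.62 and 0.52 on the log2 scale (adjusted p = 1.24e-08 and 1.87e-06), and Kansl2 was not called (0.085). Msl3, the chromodomain subunit (chrX:168654117-168673898, minus strand), fell. Its values were 63.4, 52.6, 59.6 and 53.5 CPM in the DMSO libraries and 35.8, 42.2, 31.7 and 39.7 CPM in the PF-9363 libraries, a decrease of 0.61 ± 0.092 (SE, adjusted p = 8.48e-07). The count of 4 rises and 1 fall among the 6 was the same under RLE and library-size scaling. Over all genes tested, 36.6% rose and 39.4% fell on the TMM scale.

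Kansl2 was the subunit of this group that differed most with SETBP1-D868N. It was at 33.3, 32.3 and 33.99 CPM in the luciferase libraries and 42.9, 40.4 and 40.3 CPM in the SETBP1-D868N libraries, and the difference of 0.31 ± 0.040 (SE) had an adjusted p of 4.61e-05. A processed pseudogene of near-identical sequence, Kansl2-ps, held 1.09% as many counts as Kansl2 over all libraries. Msl3 was higher by 0.13 (adjusted p = 0.00369). Msl1 was lower, at 175, 178 and 173 CPM in the luciferase libraries and 170.2, 158 and 159 CPM in the SETBP1-D868N libraries. That small decrease of 0.11 ± 0.032 (SE, adjusted p = 0.0136) lost its call with library-size scaling and without luciferase 2 or SETBP1-D868N 2 (-0.099 and -0.096, adjusted p = 0.0658 and 0.05001). Msl2, Kansl1 and Kansl3 were not called.

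**Figure D3:**
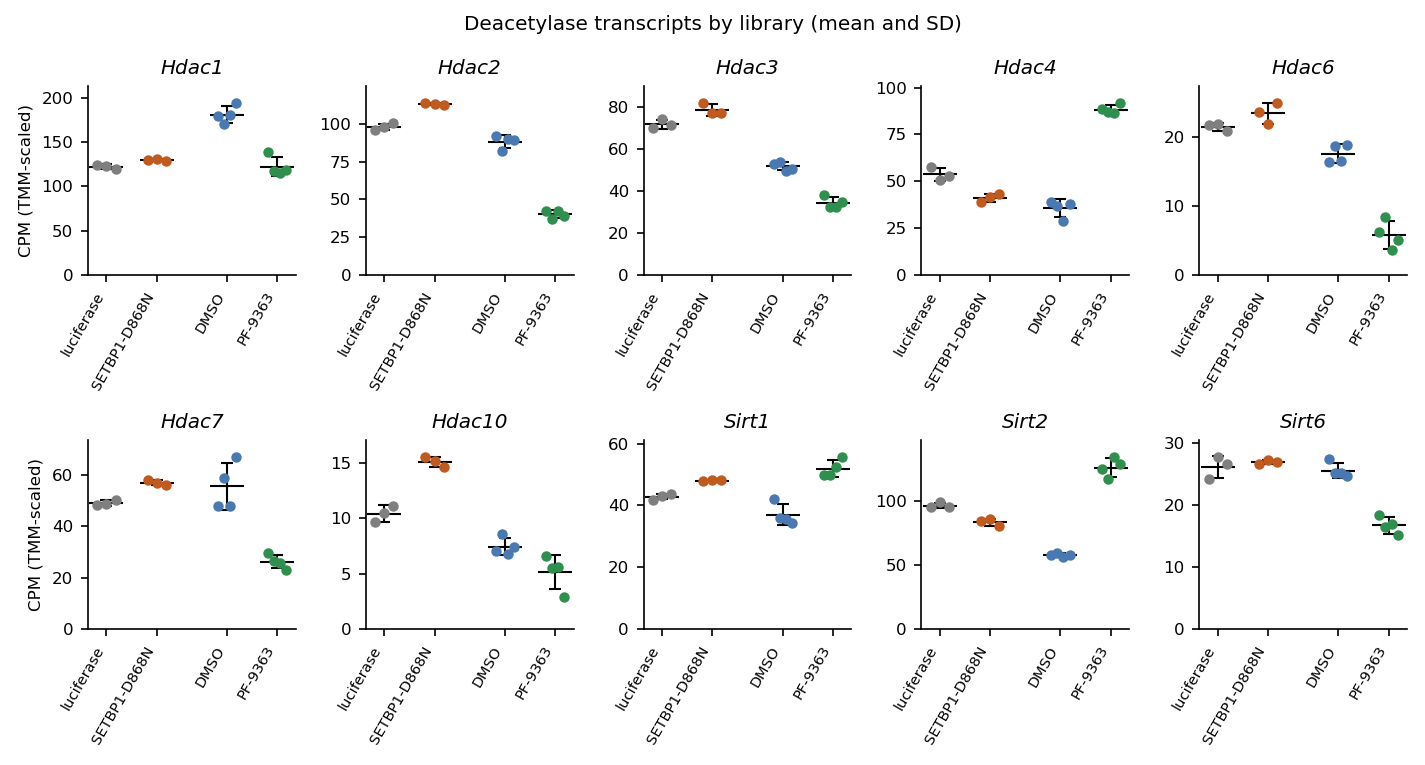
Transcript level of 10 deacetylase genes in each library, in CPM on an axis from 0, with the mean and SD of each group. Hdac1, Hdac2, Hdac3, Hdac7 and Hdac10 stood above luciferase with SETBP1-D868N and below DMSO with PF-9363, and Hdac4 and Sirt2 did the reverse.

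The class I deacetylases Hdac1, Hdac2 and Hdac3, the catalytic cores of the nuclear corepressor complexes, all fell with PF-9363. Hdac2 (chr10:36974544-37001889, plus strand) fell most, from values of 91.6, 81.7, 90.2 and 89.2 CPM with DMSO to 42.5, 36.8, 42.1 and 39.1 CPM with PF-9363. It decreased by 1.14 ± 0.076 (SE) on the log2 scale (adjusted p = 7.40e-14). Hdac1, its usual partner, fell by 0.56 ± 0.067 (SE, adjusted p = 1.44e-08) and Hdac3, the enzyme of the NCoR and SMRT complexes, by 0.58 ± 0.085 (SE, adjusted p = 5.61e-07). Hdac8, the last class I enzyme, went from 7.43 ± 0.290 CPM to 5.63 ± 1.79 CPM (SD, n = 4) and missed the threshold (adjusted p = 0.0514). Hdac6 (chrX:7930120-7947889, minus strand), a cytoplasmic enzyme that deacetylates tubulin, was at 16.3, 18.7, 16.4 and 18.8 CPM in the DMSO libraries and 6.27, 8.36, 3.57 and 5.09 CPM in the PF-9363 libraries. This was a 2.98-fold decrease (log2 fold change -1.58 ± 0.17 SE, adjusted p = 2.31e-09). Hdac10, the polyamine deacetylase related to Hdac6, was at 7.03, 8.56, 6.73 and 7.42 CPM in the DMSO libraries and 6.58, 5.53, 5.59 and 2.92 CPM in the PF-9363 libraries. It fell by 0.53 ± 0.21 (SE, adjusted p = 0.0222), but the call was lost without DMSO 2 (-0.46, adjusted p = 0.0648) or without PF-9363 4 (-0.31, adjusted p = 0.144).

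The class IIa enzymes, which shuttle between nucleus and cytoplasm and bind MEF2 factors, did not move as one. Hdac4 (chr1:91928779-92195699, minus strand) rose: its values were 39.1, 36.8, 28.9 and 38.1 CPM in the DMSO libraries and 88.6, 86.7, 86.2 and 91.7 CPM in the PF-9363 libraries. The groups were far apart, with a log2 fold change of 1.31 ± 0.084 (SE) and an adjusted p of 3.43e-14. Gm26720, on the opposite strand, shares 3536 exon bases with Hdac4, 22.4% of its exon bases. It is not among the counted gene symbols, and its part in the level of Hdac4 was not tested. Hdac7 (chr15:97792664-97844502, minus strand) fell, with 48.1, 59.05, 48.1 and 66.99 CPM in the DMSO libraries and 29.6, 26.6, 25.6 and 23.2 CPM in the PF-9363 libraries. Despite the wide spread of the DMSO libraries there was no overlap (-1.08 ± 0.11 SE, adjusted p = 2.13e-09). Hdac5 was higher by 0.19 (adjusted p = 0.0207), a call that was lost without DMSO 3 (0.15, adjusted p = 0.0832) and without the expression filter and turned to -0.042 under library-size scaling. Hdac9 went from 2.10 ± 0.431 CPM to 2.87 ± 0.644 CPM (SD, n = 4) and was not called (adjusted p = 0.158).

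Hdac11, the class IV enzyme (chr6:91156665-91174692, plus strand), was near the detection limit. Its raw counts were 6, 11, 9 and 10 in the DMSO libraries and 0 in all 4 PF-9363 libraries. Set against a floor of 3 counts per library, it was at least 2.31-fold lower, and without the expression filter its adjusted p was 5.25e-06 over 25196 genes. Gm44002 and Gm14573, on the opposite strand, share 594 and 96 exon bases with Hdac11. They were at 0.211 and 0.122 CPM with DMSO and 0 CPM with PF-9363. The part of these overlaps in the counts of Hdac11 was not tested. Among all genes tested, 39.4% fell and 36.6% rose with PF-9363. Over the 10 zinc-dependent deacetylases tested, 6 fell and 2 rose (7 and 1 with library-size scaling). Their median log2 fold change was -0.55, beside -0.038 over all genes.

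With SETBP1-D868N, the same family had 6 of 11 genes higher and 2 lower, with a median of 0.13, where 24.5% of all genes tested were higher and 22.7% lower. The counts were 5 and 2 with RLE scaling and with limma-voom, 7 and 1 with library-size scaling and 4 and 2 with DESeq2. Hdac10 (chr15:89123307-89128700, minus strand) was at 9.62, 10.5 and 11.1 CPM in the luciferase libraries and 15.5, 15.2 and 14.6 CPM in the SETBP1-D868N libraries. This 1.45-fold difference was the largest of all members (log2 fold change 0.54 ± 0.062 SE, adjusted p = 1.97e-05). Hdac7 was at 48.4, 48.6 and 50.4 CPM in the luciferase libraries and 57.9, 56.99 and 56.2 CPM in the SETBP1-D868N libraries, a change of 0.22 ± 0.032 (SE, adjusted p = 0.000159). Hdac2 was at 96.2, 97.6 and 100.2 CPM in the luciferase libraries and 114, 113 and 112 CPM in the SETBP1-D868N libraries. It was higher by 0.20 ± 0.028 (SE, adjusted p = 7.42e-05), and Hdac3 and Hdac1 by 0.13 and 0.086 (adjusted p = 0.00888 and 0.0218). The call of Hdac1 was lost without luciferase 2 or 3 or SETBP1-D868N 1 or 2 (0.070 to 0.090, adjusted p 0.0568 to 0.112), and with DESeq2. Its near-identical processed pseudogenes Gm10093 and AC125456.1 are not among the counted gene symbols. Reads could be split between them and Hdac1, and their share could not be measured.

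Hdac4 ran the other way and was the member that fell most with SETBP1-D868N. Its values were 57.4, 50.8 and 52.6 CPM in the luciferase libraries and 38.7, 41.5 and 43.2 CPM in the SETBP1-D868N libraries, a decrease of 0.38 ± 0.053 (SE) on the log2 scale (adjusted p = 0.000158). The class IIa relative Hdac5 was at 80.3, 84.8 and 82.2 CPM in the luciferase libraries and 77.2, 74.03 and 78.1 CPM in the SETBP1-D868N libraries. Its small decrease of 0.11 ± 0.033 (SE, adjusted p = 0.0161) was lost with library-size scaling and without luciferase 2 or SETBP1-D868N 2 (-0.088 and -0.092, adjusted p = 0.0889 and 0.0541). Hdac8 was at 7.72, 8.15 and 7.71 CPM in the luciferase libraries and 8.73, 8.41 and 9.70 CPM in the SETBP1-D868N libraries. It passed narrowly (0.19 ± 0.071 SE, adjusted p = 0.0496) and lost its call in 12 of 14 alternatives, including the removal of any library but SETBP1-D868N 2 (0.12 to 0.21, adjusted p 0.0655 to 0.201). Hdac6, Hdac9 and Hdac11 were not called.

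Of the sirtuins, the NAD-dependent deacetylases, 3 rose and 1 fell with PF-9363, where 36.6% of all genes tested rose and 39.4% fell. Sirt2 (chr7:28766735-28788661, plus strand), found mostly in the cytoplasm, was at 57.8, 59.7, 56.3 and 58.1 CPM in the DMSO libraries and 125, 117, 134 and 129 CPM in the PF-9363 libraries. It more than doubled in the treated libraries (1.12 ± 0.068 SE, adjusted p = 7.16e-15). Nuclear Sirt1 rose by 0.49 (adjusted p = 9.12e-06) and nucleolar Sirt7 by 0.27 (adjusted p = 0.000946), the latter not under library-size scaling (0.042, adjusted p = 0.607). Mafg, on the same strand, shares 124 exon bases with Sirt7 and went from 157 CPM with DMSO to 275 CPM with PF-9363. The part of this overlap in the level of Sirt7 was not tested. Sirt6 (chr10:81621785-81627797, minus strand), a chromatin enzyme of telomeres and DNA repair, fell. Its values were 27.4, 25.2, 25.1 and 24.7 CPM in the DMSO libraries and 18.4, 16.5, 16.9 and 15.2 CPM in the PF-9363 libraries, a decrease of 0.61 ± 0.11 (SE, adjusted p = 1.04e-05). With SETBP1-D868N, Sirt2 went the other way. It was at 95.02, 98.9 and 95.4 CPM in the luciferase libraries and 84.2, 85.8 and 80.4 CPM in the SETBP1-D868N libraries, lower by 0.21 ± 0.033 (SE, adjusted p = 0.000228). Sirt1 was higher by 0.17 (adjusted p = 0.00115), and Sirt6 and Sirt7 were not called.

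Among the 7 readers, 4 fell and 2 rose with PF-9363, where 39.4% of all genes tested fell and 36.6% rose. Yeats2 (chr16:20141063-20232573, plus strand), the YEATS subunit of the ATAC complex, was at 44.2, 52.8, 46.2 and 42.4 CPM in the DMSO libraries and 15.8, 14.5, 13.05 and 12.01 CPM in the PF-9363 libraries. This 3.33-fold decrease was the largest fall of the members (-1.74 ± 0.11 SE, adjusted p = 1.71e-14). Brd9 (chr13:73937811-73960895, plus strand), the bromodomain subunit of the non-canonical BAF remodeler, was at 51.4, 45.9, 49.4 and 51.4 CPM in the DMSO libraries and 24.9, 30.9, 19.3 and 22.5 CPM in the PF-9363 libraries. It fell by 1.02 ± 0.11 (SE, adjusted p = 1.46e-09). Mllt1 (chr17:56892611-56935415, minus strand), a YEATS reader of the super elongation complex also called ENL, was at 39.5, 35.1, 31.6 and 32.2 CPM in the DMSO libraries and 18.8, 21.6, 18.6 and 20.8 CPM in the PF-9363 libraries. All treated libraries were below all controls (-0.79 ± 0.10 SE, adjusted p = 8.92e-08), whereas its paralog Mllt3, or AF9, rose by 0.64 ± 0.15 (SE, adjusted p = 0.000426).

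The BET proteins, readers that recruit the transcription machinery to acetylated chromatin, also moved apart. Brd2 (chr17:34112023-34122634, minus strand) was at 230.5, 225, 222 and 229 CPM in the DMSO libraries and 558, 492, 562 and 592 CPM in the PF-9363 libraries. It rose 2.43-fold (1.28 ± 0.062 SE, adjusted p = 4.84e-17), while Brd3 fell by 0.52 ± 0.071 (SE, adjusted p = 1.71e-07). H2-DMa, on the opposite strand, shares 360 exon bases with Brd2 and was at 27.7 CPM with DMSO and 34.1 CPM with PF-9363. CR974462.3, also on the opposite strand, shares 405 exon bases with Brd2 and is not among the counted gene symbols. The part of these overlaps in the level of Brd2 was not tested. Yeats4, the YEATS subunit of TIP60, was not called (-0.12).

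With SETBP1-D868N, 4 of the 7 readers were higher and 0 lower, by edgeR under each of the 3 scalings and by limma-voom. The same counts had an unadjusted p under 0.05 in edgeR, and DESeq2 called 3 and 0. With TMM scaling, edgeR called 24.5% of all genes tested higher and 22.7% lower. Mllt1 was at 83.8, 85.1 and 82.9 CPM in the luciferase libraries and 97.6, 91.7 and 95.8 CPM in the SETBP1-D868N libraries, and the difference of 0.18 ± 0.031 (SE) had an adjusted p of 0.00047. Mllt3 was at 14.8, 16.4 and 16.5 CPM in the luciferase libraries and 18.2, 17.8 and 17.9 CPM in the SETBP1-D868N libraries. It was higher by 0.18 ± 0.052 (SE, adjusted p = 0.015), although not without luciferase 1 (0.13, adjusted p = 0.0605). Brd3 and Yeats4 were higher by 0.12 and 0.11 (adjusted p = 0.00352 and 0.0172), and Yeats4 lost its call with DESeq2 and without luciferase 1, luciferase 2 or SETBP1-D868N 1 (0.085 to 0.11, adjusted p 0.0534 to 0.0654). Brd2, Brd9 and Yeats2 were not called, at 0.012, 0.043 and 0.037, although each changed by over 2-fold with PF-9363.

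Several of these pairs are paralogs that can take the same place in a complex, and the ratio of 2 genes within a library does not depend on the scaling. The largest shift was that of Brd2 to Brd3, whose log2 ratio was 1.40, 1.47, 1.47 and 1.45 in the DMSO libraries and 3.36, 3.05, 3.19 and 3.36 with PF-9363. Counts of Brd2 were thus 2.73 times those of Brd3 in the controls and 9.46 times in the treated libraries. For Kat2a to Kat2b the mean log2 ratio went from 0.083 ± 0.15 (SD, n = 4) to -1.33 ± 0.22, so that the more counted gene changed from Kat2a to Kat2b, apart from DMSO 2 where Kat2b already led. Brpf1 to Brpf3 went from 2.07 ± 0.096 to 0.63 ± 0.089, and Mllt1 to Mllt3 from 1.99 ± 0.35 to 0.55 ± 0.28. Ep300 to Crebbp fell from 1.96 ± 0.091 to 1.02 ± 0.047, both genes having risen. Kat6a to Kat6b, Hdac1 to Hdac2 and Epc1 to Epc2 shifted by 0.38, 0.57 and 0.42. In each of the 8 pairs, no treated library reached the range of the DMSO libraries. With SETBP1-D868N the shifts were small: the largest was that of Kat2a to Kat2b, from 0.58 ± 0.10 (SD, n = 3) to 0.94 ± 0.033, and the other 7 lay between -0.16 and 0.054.

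**Figure D4:**
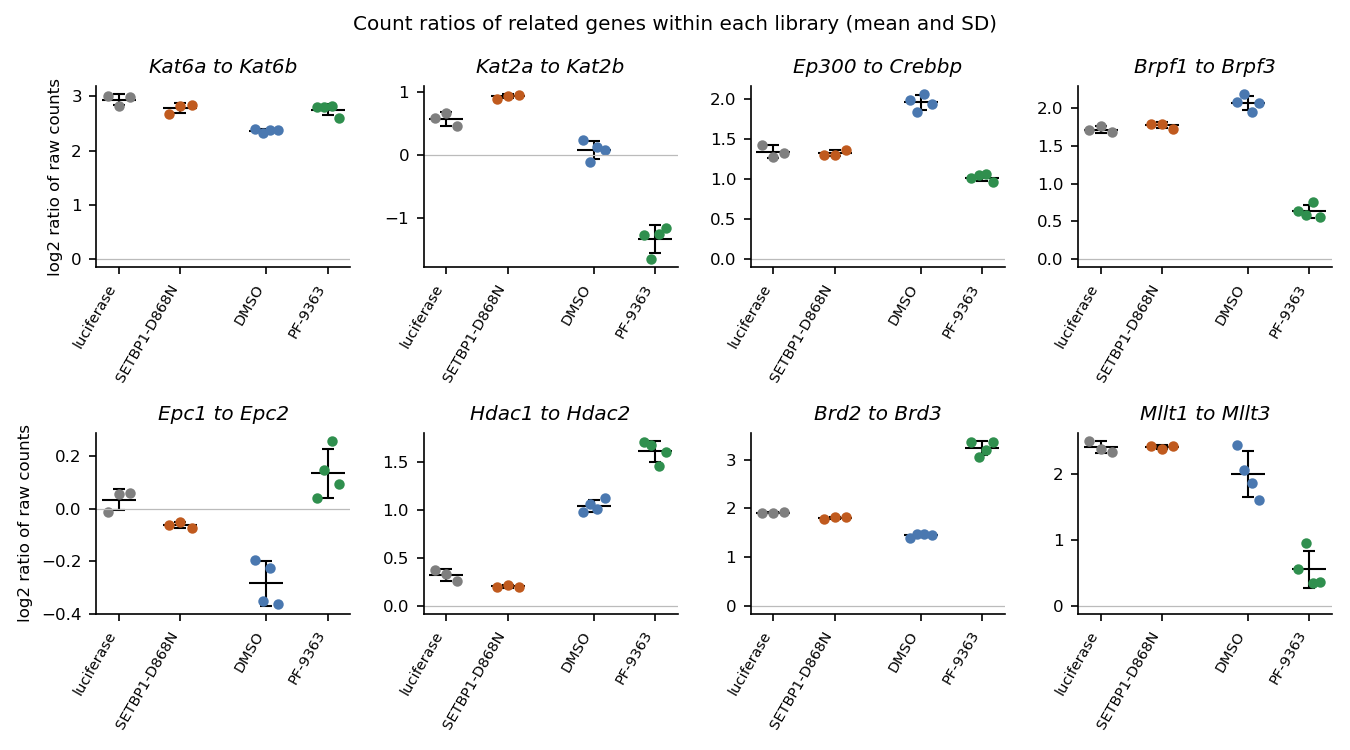
Log2 ratio of the counts of 8 pairs of related genes in each library. For Kat2a to Kat2b, luciferase libraries spanned 0.47 to 0.68 and SETBP1-D868N libraries 0.90 to 0.96. DMSO libraries spanned -0.11 to 0.24 and PF-9363 libraries -1.65 to -1.15. DMSO cells also carried SETBP1-D868N, so their lower ratio beside the SETBP1-D868N libraries is a difference between experiments.

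The comparisons share no library, but both concern cells carrying SETBP1-D868N, and their values can be set side by side. Of the 52 members tested in both, 13 (25%) were called in opposite directions and 5 (9.62%) in the same direction, beside 34.9% and 9.05% of the 12376 genes tested in both. These shares describe the members beside the background, and their difference was not tested. The 9 members above luciferase with SETBP1-D868N and below DMSO with PF-9363 were Kat2a, Msl3, Hdac1, Hdac2, Hdac3, Hdac7, Hdac10, Brd3 and Mllt1. The 4 members that did the reverse were Msl1, Hdac4, Hdac5 and Sirt2. Jade2, Jade3, Meaf6, Sirt1 and Mllt3 were higher in both. Neither comparison called Kat5, Kat8, Brpf1, Brd1, Ing4, Ep400, Trrap or Hdac9. The sizes differed greatly: Hdac2, for example, was 0.20 higher on the log2 scale in one comparison and decreased by 1.14 ± 0.076 (SE) in the other, and Hdac4 fell by 0.38 ± 0.053 (SE) and rose by 1.31 ± 0.084 (SE). Input RNA (500 ng against 100 ng), library preparation and depth also differed between the experiments, so no test was made across them.

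**Figure D5:**
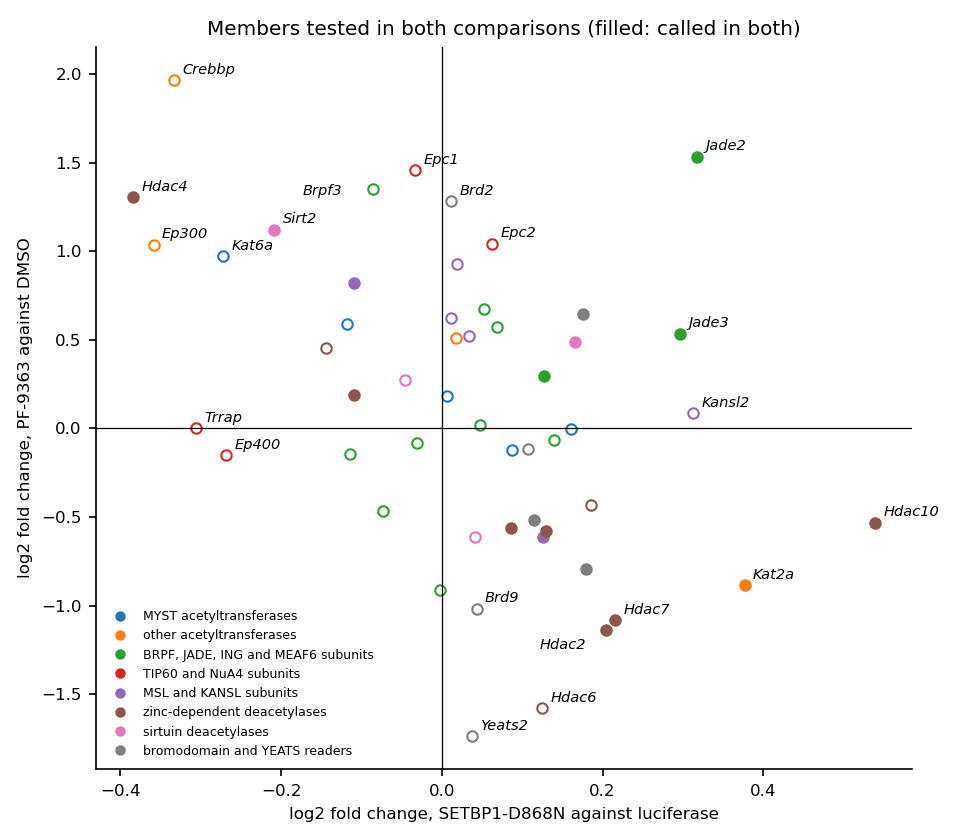
Log2 fold change of each of the 52 members tested in both comparisons, with SETBP1-D868N against luciferase on the horizontal axis and PF-9363 against DMSO on the vertical axis, coloured by role, filled where both comparisons called the gene. The filled points comprise 9 members at lower right, 4 at upper left and 5 at upper right.

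Partner genes of the same complexes, taken from lists of complex composition, gave a wider frame. With SETBP1-D868N, 25 of 79 partners tested were higher and 7 lower, with a median of 0.014, where 24.5% of all genes tested were higher and 22.7% lower. The subunits of SAGA and ATAC, where Kat2a resides, had 9 of 17 higher and 1 lower, and the TIP60, MSL and NSL partners 7 of 14 higher and 1 lower. Ruvbl1, an ATPase of TIP60, was higher by 0.46 ± 0.034 (SE, adjusted p = 6.77e-07) and Tada2a, a SAGA and ATAC adaptor, by 0.35 ± 0.049 (adjusted p = 8.94e-05). Smarca2, a BAF ATPase with a bromodomain, and Baz2b were lower, with log2 fold changes of -0.33 and -0.28 (adjusted p = 0.00103 and 0.0319). Deacetylase corepressor subunits had 6 of 27 higher and 1 lower, and other bromodomain proteins 3 of 21 higher and 4 lower.

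With PF-9363, 24 of the 79 partners were higher and 39 lower, with a median of -0.15, where 36.6% of all genes tested were higher and 39.4% lower. TIP60, MSL and NSL partners were 2 higher and 9 lower of 14, SAGA and ATAC subunits 5 and 8 of 17, corepressor subunits 8 and 13 of 27, and other bromodomain proteins 9 and 9 of 21. With library-size scaling these counts were 0 and 9, 2 and 8, 5 and 17, and 5 and 11. With RLE scaling they were 3 and 7, 6 and 8, 9 and 13, and 9 and 9. DESeq2 gave 2 and 6, 6 and 8, 9 and 13, and 9 and 9. Ruvbl2, the second ATPase of TIP60, went from 147 ± 5.95 CPM to 32.4 ± 1.68 CPM (SD, n = 4), a log2 fold change of -2.18 ± 0.072 (SE, adjusted p = 6.21e-21). Atad2, a bromodomain protein of dividing cells, fell from 215 ± 16.1 CPM to 61.5 ± 12.0 CPM (-1.80, adjusted p = 1.25e-08). Phip and Chd3 rose most, by 0.99 and 0.89 (adjusted p = 2.43e-10 and 3.63e-11). Among TIP60 genes, the Epc subunits thus rose and Ruvbl2 fell in the same libraries.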

How the data were processed

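Polyadenylated RNA of 6 samples (500 ng input) and 8 samples (100 ng) was sequenced, and the authors deposited whole-number read counts per gene symbol, 1 table per experiment. The submitters' processing notes name STAR, DESeq2, GRCm38 and mm10. The counting program, its annotation and its use of strand are not given in the sources used here. Groups were taken from the sample labels. Each experiment was fitted separately in edgeR 4.0.16 (R 4.3.3) with TMM scaling, filterByExpr (minimum count 10, minimum total 15) and the robust quasi-likelihood test, and p-values were adjusted over all genes tested (called under 0.05). SE was derived from the test's F statistic as the absolute log2 change over its square root. Depths of 60147266 to 68730322 and 7083731 to 10359093 counts limit the precision of low genes in the second experiment. Replicates differed beyond sampling noise. The code was tested on simulated counts. Alternatives were RLE and library-size scaling, other filters, DESeq2 1.42.0, limma-voom 3.58.1, no robust estimation, a replicate block and leaving out each library. Members, lists and the rule for named genes were chosen with earlier results of these data known. Per-library values were given for the MYST enzymes and, in each comparison and direction, the 10 called members of largest change, and the other called members by value; Ep300, Crebbp, Ep400 and Trrap in the first comparison were added after their values were seen. Coordinates are GENCODE M21 (GRCm38), and promoter sequences are RefSeq's on GRCm38.p6.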

Additional observations from a re-analysis of the deposited data

Results flagged for a closer look

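In 4 of the 104 groups of 4 libraries examined (52 genes in the DMSO and the PF-9363 group), 1 library lay far from the other 3 by Dixon's criterion at 95%, which chance alone meets in about 1 in 20 groups. Kat8 was at 13.7 CPM in DMSO 2 and at 16.3 to 16.4 CPM in the other DMSO libraries. In PF-9363 1, Brd1 was at 96.6 CPM (105 to 106 CPM in the others), Msl1 at 247 CPM (289 to 295 CPM) and Hdac1 at 138 CPM (115 to 119 CPM). Msl1 and Hdac1 kept their calls without that library, and Kat8 and Brd1 were not called.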

How the results depend on the processing

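Of the called members, 15 of 23 with SETBP1-D868N kept direction and call in all 14 alternatives, and 35 of 39 with PF-9363 in all 16. With SETBP1-D868N, the members called lower (4) were 2 with library-size scaling, 7 with limma-voom, 7 without robust estimation and 2 to 5 when a library was left out. Among all called genes, the share called higher was 51.9%, and 62.1% with library-size scaling, 51.1% with limma-voom and 51.2% without robust estimation. Over all genes, 3106 to 3480 were called lower when a library was left out, against 3579 with every library. The cause of these changes was not tested. The members' median was 0.092 with library-size scaling, and that of all genes 0.053 with that scaling and -0.028 without the filter. Kat5 turned to -0.0013 with RLE scaling and with DESeq2, and ranged from -0.014 to 0.026 when a library was left out. With PF-9363, library-size scaling gave 23 members lower (15), a median of -0.096 over members and -0.27 over all genes, and -0.046 for Kat5 and -0.042 for Hdac5. Without the filter the medians were 0.063 and 0.040. Leaving out a library gave a members' median of 0.098 to 0.16. Kat8 was 0.021 with RLE scaling, 0.020 with DESeq2, and -0.068 to 0.046 when a library was left out. Replicate numbers did not pair the samples: deviations of same-numbered libraries correlated at -0.097 to -0.037 and at -0.040 to 0.0075, and 0 libraries correlated best with their own number. With the replicate number as a block, 16 members were higher and 4 lower (19 and 4 without), and 24 and 17 with PF-9363 (24 and 15). The share of higher calls among all called genes was then 51.4% and 48.3%, against 51.9% and 48.1% without the block. The block ended the calls of Kat7, Hdac1 and Hdac8 with SETBP1-D868N (0.087, 0.086 and 0.18, adjusted p = 0.0766, 0.0522 and 0.0945). Depth limits Hdac11, Ing4 and Hdac9 in the second experiment.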
